A study of Arabidopsis thaliana with 6 samples.

Results

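The 10 genes described here form the core of the circadian clock of Arabidopsis thaliana: CCA1, LHY, TOC1, GI, PRR5, PRR7, PRR9, ELF3, ELF4 and LUX. They were taken by locus identifier, and every PIF4 peak that overlapped the body of 1 of them, or the 3 kb on either side, was collected. This gave 28 peaks of 19201 in all, 14 in list 1, 9 in list 2 and 5 in list 3. PIF4 is a bHLH transcription factor that drives elongation growth and is destabilised when light activates phytochrome. The study asked which sites it occupies in seedlings that develop in darkness.

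The transgenic line overexpressed PIF4 carrying a Myc tag, and the design text names it P1M. It was set against the wild type, which has no tag. Both were whole seedlings, 3 days old, given 3 h of white light at 21 °C to start germination and then kept for 3 days in darkness. Chromatin of both genotypes was precipitated with the same anti-Myc antibody, and each genotype had 3 libraries. Every library combined the DNA of 4 ChIP assays from 2 biological replicates. Occupancy was thus read in a line with more PIF4 than the wild type, and the promoter of the transgene is not given in the sources used here.

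The deposited data are 3 peak lists, 1 for each PIF4-Myc library, which the authors called with a wild-type ChIP as control. Their headers give 9385807 to 12766185 treatment tags. List 1 stood apart from the others. It held 12177 peaks with a median fold enrichment of 0.990 over the local expectation, and 51.2% of its folds were below 1. List 2 held 4093 peaks with a median fold of 2.46, and list 3 held 2931 with a median fold of 4.17. Every tag value of list 1 was a multiple of 5, and by the headers list 3 had a control of its own while lists 1 and 2 used the same one. Folds are therefore ranked within a list, and each count is given by list. The PIF4 gene itself (AT2G43010) had a peak with its summit in the gene in all 3 lists, with folds of 2.18, 5.64 and 5.05. The line carries a PIF4 transgene that the wild type lacks, so tags of the transgene and of occupied chromatin cannot be told apart at this gene. Every fold, p-value and false discovery rate was computed by the authors' peak caller for 1 peak and has no replicate error.

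The clock is a network of transcription factors that repress each other in turn over the day. CCA1 and LHY act around dawn, the PRR proteins follow one another through the day to TOC1 in the evening, and ELF3, ELF4 and LUX form the evening complex. GI works mostly after transcription, through the F-box protein ZTL and its relatives. PIF4 is itself an output of this network, since the evening complex represses the PIF4 gene early in the night, and PRR proteins are known to bind PIF proteins. The peaks described here concern the reverse direction, PIF4 at the clock genes.

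PIF4 peaks of lists 2 and 3 coincided at 4 of the 10 clock genes, GI, PRR9, PRR5 and LUX, and GI alone had a region in all 3 lists. The LUX peaks had their summit inside the neighbour RDUF1, 2857 bp from LUX, and LUX dropped out with a window of 1 kb. No list 2 or list 3 peak lay within 3 kb of CCA1, TOC1, PRR7 or ELF4. List 2 peaks reached 26.4% and list 3 peaks 20.2% of all protein-coding genes, so such absence is common. A region here is a set of peaks from different lists that overlap by at least 1 bp. The 4 genes with a region in lists 2 and 3 are 40.0% of the clock genes, against 16.9% of all 27444 protein-coding genes. The 1 gene with a region in all 3 lists is 10.0%, against 6.73% of all genes. Regions in at least 2 lists reached the same 4 genes, against 21.6% of all genes, and each of the 4 had its peaks in lists 2 and 3.

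By single list, list 1 had a peak near 9 of the 10 genes, all but PRR9, against 63.5% of all protein-coding genes. List 2 reached 6 genes, against 26.4% of all genes. List 3 reached 4 genes, against 20.2% of all genes. Among the 2931 best-ranked peaks of each list, list 1 reached 2 of the 10 (19.2% of all genes) and list 2 reached 3 (19.8% of all genes). With 10 genes, 1 gene more or less moves each share by 10 percentage points, and no test was run on these counts, since the genes were chosen with earlier results of these data known.

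**Figure D1:**
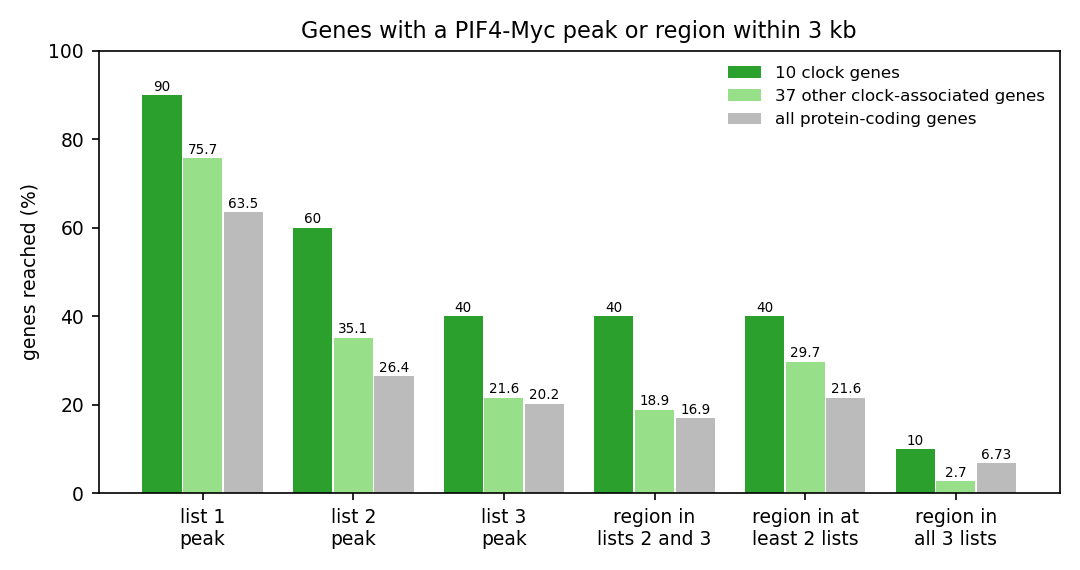
Percentage of genes (vertical axis) with a PIF4-Myc peak or shared region in the gene or within 3 kb, for each list and each combination of lists (horizontal axis). Bars show the 10 clock genes, 37 other clock-associated genes and all 27444 protein-coding genes. In lists 2 and 3 together the clock genes stand at 40.0%, the other clock-associated genes at 18.9% and all genes at 16.9%.

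Longer genes have longer windows, and the clock genes are long, with a median of 3753 bp against 2078 bp for all protein-coding genes. Counted per length, list 1 had 14.6 summits per 100 kb in the windows of the clock genes and 11.3 in the windows of all genes. List 2 had 9.41 summits per 100 kb at the clock genes and 3.76 at all genes. List 3 had 5.23 at the clock genes and 2.73 at all genes. GI, the longest of the 10, holds 3 of the 9 list 2 peaks and 2 of the 5 list 3 peaks. All of these have their summits outside the gene, on its lower-coordinate side.

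**Figure D2:**
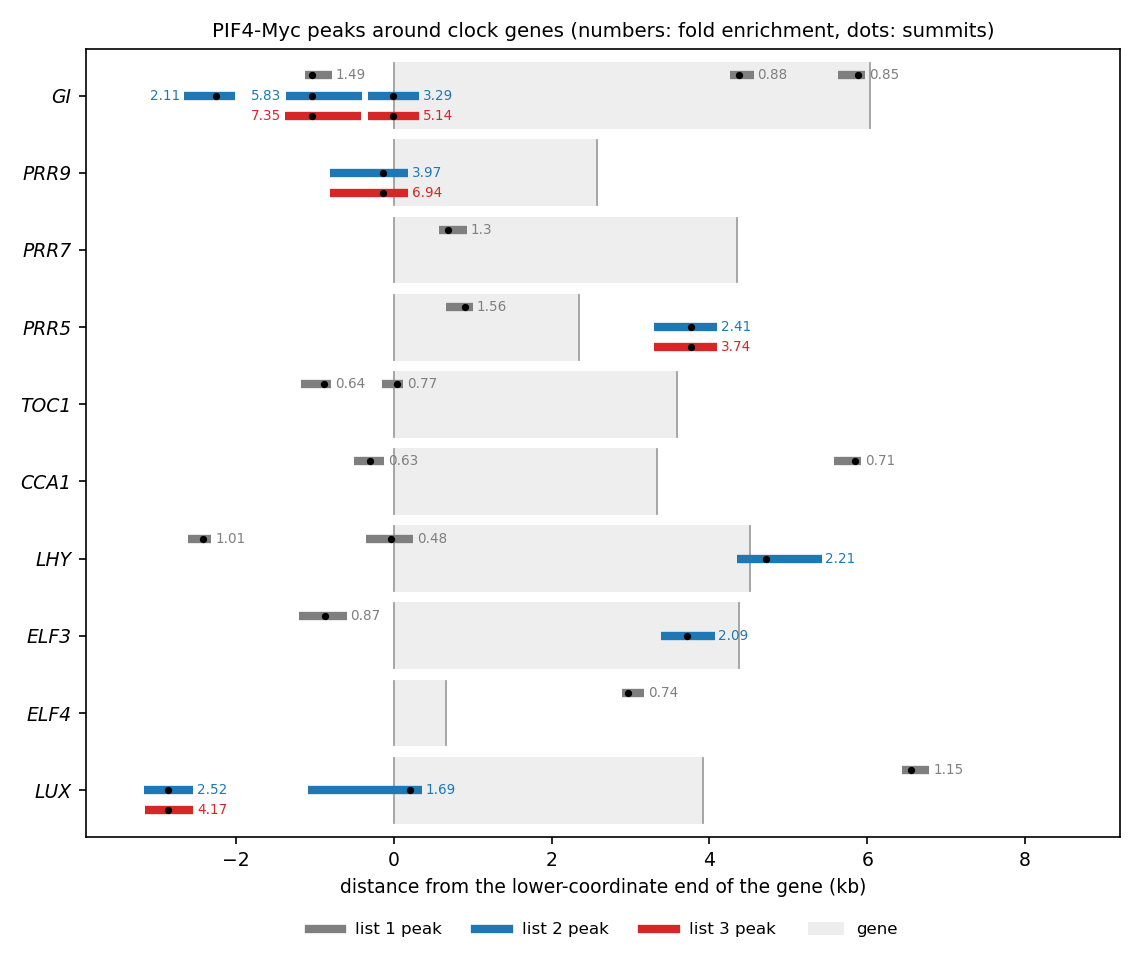
Peaks around each clock gene, drawn by distance in kb from the lower-coordinate end of the gene (horizontal axis), with the gene as a grey box, 1 row per gene. Coloured bars are peaks of lists 1, 2 and 3, dots are summits and numbers are fold enrichments. Bars of all 3 lists stack only beside GI, about 1 kb outside the gene.

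GI (GIGANTEA, AT1G22770), a large plant-specific protein that stabilises ZTL and links the clock to flowering, had the strongest peaks of the group in lists 2 and 3. On chromosome 1 of TAIR10 its main peak spanned 8060615 to 8060958 in list 1, and 8060374 to 8061338 in both lists 2 and 3. The folds there were 1.49, 5.83 and 7.35 in lists 1, 2 and 3. All 3 values are above the median fold of their own list.

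The list 2 peak held 331 tags over 965 bp and the list 3 peak 275 tags over the same 965 bp. By p-value the main GI peak ranked 1536 of 12177 in list 1, 59 of 4093 in list 2 and 97 of 2931 in list 3. The authors' false discovery rate at this peak was 1.69% in list 1, 0% in list 2 and 14.4% in list 3. It was the only peak of the 28 at a rate of 1% or less.

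The summits of the main GI peak lay at 8060708, 8060706 and 8060711 in lists 1, 2 and 3. They were within 5 bp of each other, 1040 to 1045 bp outside the lower-coordinate end of the gene. Of the 785 regions with a peak in all 3 lists, 28 (3.57%) had summits that close, and the median spread was 169 bp. The annotation used gives no strand, so sides are named here by coordinate. GI was the protein-coding gene nearest to these summits.

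A weaker peak spanned 8061429 to 8062063 in lists 2 and 3, with its summit at 8061735 in both, 16 bp outside the same end of GI. Its folds were 3.29 in list 2 and 5.14 in list 3, with false discovery rates of 76.3% in list 2 and 93.8% in list 3. List 1 had no peak there. List 2 had a further peak at 8059096 to 8059741 with a fold of 2.11, whose summit lay nearer to the neighbouring gene PAB3, which encodes a poly(A)-binding protein. Further list 1 peaks lay inside GI, at 8066012 to 8066305 and 8067383 to 8067724, with folds of 0.88 and 0.85. Both are under 1, and neither overlapped a peak of lists 2 or 3.

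Among the pseudo-response regulators, repressors that act in sequence after dawn, PRR9 and PRR5 had peaks in lists 2 and 3, whereas PRR7 and TOC1 had peaks in list 1 alone. PRR9 (AT2G46790), the earliest of the family, had a single region on chromosome 2, at 19231793 to 19232790 in both lists. Its folds were 3.97 in list 2 and 6.94 in list 3, with 213 tags in list 2 and 180 tags in list 3. These are strong peaks for either list: 89.7% of list 2 peaks and 90.4% of list 3 peaks had a lower fold.

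The PRR9 summit was at 19232463 in both lists, 144 bp outside the lower-coordinate end of the gene, and the peak ran on into the gene. The authors' false discovery rate was 10.4% in list 2 and 15.2% in list 3. PRR9 was also the only clock gene without a list 1 peak. The nearest list 1 peak was 5066 bp away, at 19240245 to 19240658, with a fold of 1.4.

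PRR5 (AT5G24470), which acts around midday to dusk, had a peak at 8359498 to 8360298 on chromosome 5 in both lists 2 and 3, with the summit at 8359964 in both. It lay 1418 bp beyond the higher-coordinate end of PRR5, and no other protein-coding gene was within 3 kb of it. The folds were 2.41 in list 2 and 3.74 in list 3, with 149 tags in list 2 and 128 in list 3. The false discovery rate was 29.0% in list 2 and 49.4% in list 3. Both folds are below the median of their list. List 1 had its PRR5 peak elsewhere, inside the gene at 8356861 to 8357200, with a fold of 1.56. That was the highest list 1 fold of the 14, and 91.2% of list 1 peaks had a lower one.

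PRR7 (AT5G02810), which follows PRR9 in the morning, had 1 peak, in list 1, inside the gene at 638256 to 638605 on chromosome 5, with a fold of 1.3. The nearest peaks of lists 2 and 3 were both 11.5 kb away. TOC1 (AT5G61380), the evening member of the family, had list 1 peaks on chromosome 5 at 24673782 to 24674161 and at 24674811 to 24675080, with folds of 0.64 and 0.77. The first had its summit nearer to the neighbour AT5G61370, and the second in TOC1, close to its lower-coordinate end. The nearest list 2 peak to TOC1 was 19.8 kb away and the nearest list 3 peak 7.36 kb away.

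CCA1 and LHY, the closely related MYB-type factors that close the loop at dawn, had no region shared by any lists. CCA1 (AT2G46830) had list 1 peaks alone, at 19245090 to 19245463 and 19251165 to 19251503 on chromosome 2. The folds of 0.63 and 0.71 are lower than those of most list 1 peaks, since 7.23% and 15.1% of that list were lower still. Neither summit had CCA1 as its nearest gene. The first was 152 bp from PSI-P, and the second lay inside AT2G46850.

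PRR9 and CCA1 are near neighbours on chromosome 2, with 10.4 kb and 3 protein-coding genes between them. List 1 had 2 peaks between them, and lists 2 and 3 had 0. The nearest list 3 peak to CCA1 was the PRR9 peak, 12.8 kb away, and the nearest list 2 peak was 11.7 kb away on the other side, with a fold of 2.29.

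LHY (AT1G01060) had peaks of lists 1 and 2 at opposite ends of the gene on chromosome 1. In list 1 they were at 30749 to 31044 and 33015 to 33605, with folds of 1.01 and 0.48. The first had its summit inside the neighbour DCL1, which encodes the Dicer-like enzyme of microRNA maturation. The second lay 37 bp outside LHY and was among the weakest of list 1, with 0.411% of that list lower.

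In list 2 the LHY peak was at 37721 to 38789 with a fold of 2.21, and its summit was 219 bp beyond the higher-coordinate end. Its false discovery rate was 82.5%. List 3 had no LHY peak, the nearest being 13.0 kb away.

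In the evening complex, which represses PIF4 and PRR9 among other genes, LUX had a region in lists 2 and 3, ELF3 had separate peaks of lists 1 and 2, and ELF4 had a list 1 peak. LUX (AT3G46640, given as PCL1 in the annotation) encodes the DNA-binding GARP-type subunit. On chromosome 3, list 2 had a peak at 17179877 to 17180502 with a fold of 2.52, and list 3 one at 17179892 to 17180502 with a fold of 4.17. The summit was at 17180185 in both lists, 2857 bp from LUX and inside RDUF1, a ubiquitin ligase gene. LUX thus met the rule through its 3 kb window, and it was not the nearest gene to that region.

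The false discovery rates of the LUX region were high, 85.0% in list 2 and 98.2% in list 3. A second list 2 peak spanned the lower-coordinate end of LUX, at 17181959 to 17183394, with its summit 203 bp inside the gene. Its fold of 1.69 was weak for list 2, where 4.32% of peaks were lower. The list 1 peak at 17189474 to 17189823, with a fold of 1.15, had its summit inside UGT76E12, a glycosyltransferase gene on the far side.

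ELF3 (AT2G25930), the scaffold of the complex, had a list 1 peak at 11057743 to 11058344 on chromosome 2 with a fold of 0.87, 878 bp outside the gene. The list 2 peak was inside the gene near its other end, at 11062334 to 11063006, with a fold of 2.09 and a false discovery rate of 82.4%. The list 1 and list 2 peaks lay at opposite ends of the gene and did not overlap. The nearest list 3 peak was 18.3 kb away.

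ELF4 (AT2G40080), a small protein that promotes ELF3 function, is the shortest of the genes at 660 bp. Its only peak was in list 1, at 16737187 to 16737470 on chromosome 2, with a fold of 0.74 and the summit inside the neighbour AT2G40085. The nearest peaks of lists 2 and 3 were both 26.3 kb away, the longest distance among the 10 genes in either list.

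By the highest fold at each gene, the order in list 3 was GI at 7.35, PRR9 at 6.94, LUX at 4.17 and PRR5 at 3.74. In list 2 it was GI at 5.83, PRR9 at 3.97, LUX at 2.52, PRR5 at 2.41, LHY at 2.21 and ELF3 at 2.09. In list 1 PRR5 came first at 1.56, then GI at 1.49, PRR7 at 1.3, LUX at 1.15, LHY at 1.01, ELF3 at 0.87, TOC1 at 0.77, ELF4 at 0.74 and CCA1 at 0.71. The list 1 value of PRR5 comes from another site than its values in lists 2 and 3. Single values per list carry no spread, so neighbours in these orders cannot be separated. GI was the only gene with a highest fold above the median of all genes with a peak in each of the 3 lists, which was 1.06, 2.51 and 4.22 for lists 1, 2 and 3.

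**Figure D3:**
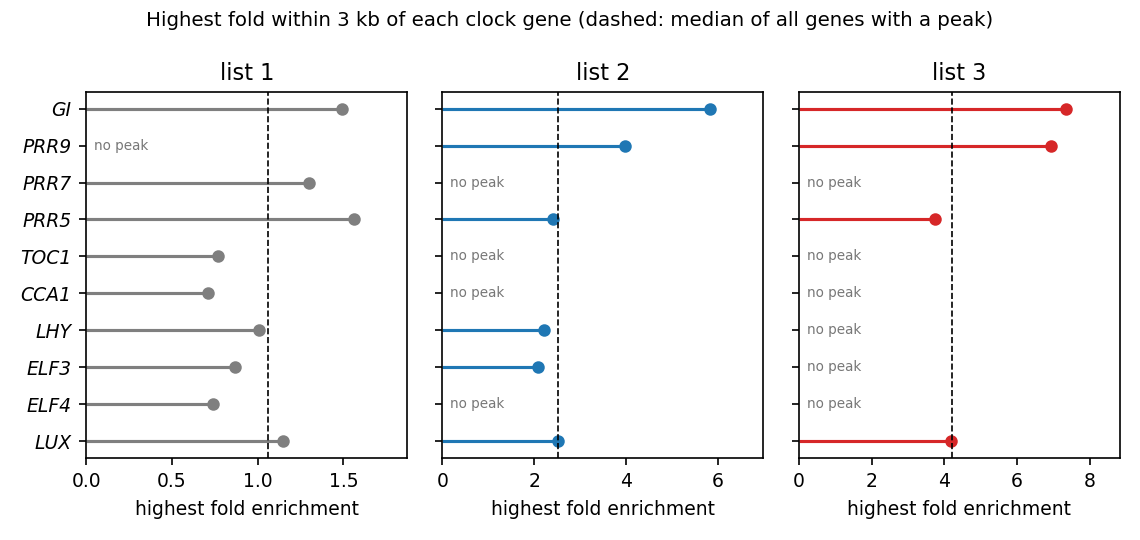
Highest fold enrichment within 3 kb of each clock gene (horizontal axes, linear, a different range per list), in lists 1, 2 and 3 from left to right, 1 row per gene. Points are single peaks without replicate error, and the dashed line is the median highest fold of all protein-coding genes with a peak in that list. GI and PRR9 lie right of the line in lists 2 and 3, while PRR5 and LUX lie at or just left of it in list 3.

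Against the genes with a peak in the same list, the highest fold of GI exceeded that of 87.0% of 17425 genes in list 1, 97.6% of 7238 in list 2 and 92.2% of 5533 in list 3. The PRR9 fold exceeded 88.7% in list 2 and 90.0% in list 3. The other clock genes were ordinary in lists 2 and 3, with 25.0% to 50.3% of genes below them. The median over clock genes with a peak was 1.01 in list 1, 2.46 in list 2 and 5.55 in list 3. These medians rest on 9, 6 and 4 genes. Over all genes with a peak the median was 1.06, 2.51 and 4.22 in the same order. In list 3, GI and PRR9 lay above 4.22, while LUX and PRR5 lay below it.

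Summits near the clock genes mostly lay outside the genes in lists 2 and 3, as did most summits of these lists as a whole. In list 1, 9 of the 14 summits were inside some protein-coding gene, 5 of them inside the clock gene, while 63.0% of all list 1 summits were inside a gene. In list 2, 3 of 9 were inside a gene, against 38.6% of all list 2 summits. In list 3, 1 of 5 was inside a gene, the LUX peak in RDUF1, against 35.4% of all list 3 summits. The clock gene was the protein-coding gene nearest to the summit for 8 of 14 peaks in list 1, 7 of 9 in list 2 and 4 of 5 in list 3.

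The overlapping peaks of lists 2 and 3 at the clock genes were close to identical in position. Of these 5 pairs, 4 shared both edges to the base, all but the LUX pair, and 4 shared the summit to the base, all but the main GI pair. Over all 2454 overlapping pairs of the lists, 25.3% shared both edges and 51.1% shared the summit. Shared summits of lists 2 and 3 are thus common in these files and shared edges less so, and the lists were not read as independent replicates.

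The fold of list 3 over that of list 2 was 1.26 at the main GI peak, 1.56 at the second GI peak, 1.75 at PRR9, 1.65 at LUX and 1.55 at PRR5. The median over all pairs was 1.59. The ratio at the main GI peak was low, with 4.12% of all pairs below it. The other 4 ratios lay in the middle of the range, with 40.9% to 77.8% of pairs below them.

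**Figure D4:**
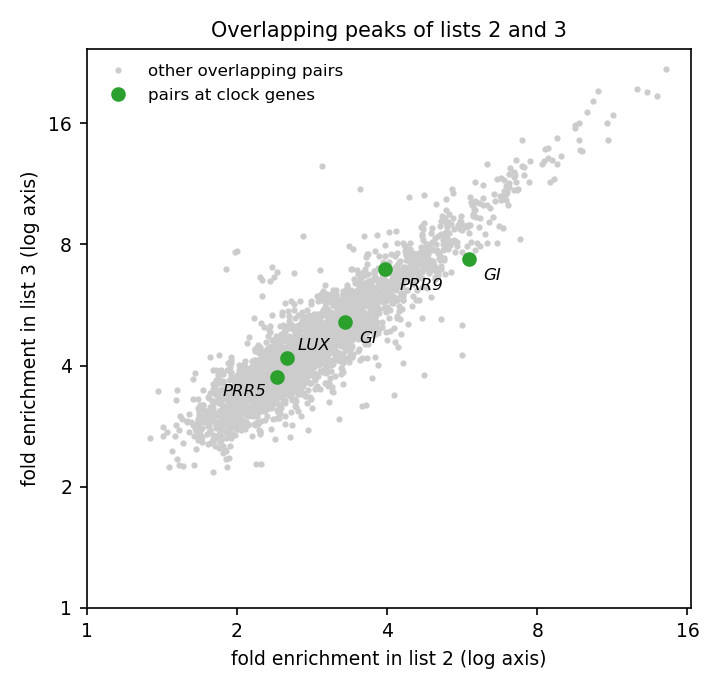
Fold enrichment of overlapping peaks in list 2 (horizontal axis, log scale) and list 3 (vertical axis, log scale), 1 point per pair. Grey points are the other pairs of the 2454 and green points the 5 pairs at clock genes. The main GI pair, at 5.83 and 7.35, lies at the lower edge of the cloud, and the other 4 lie within it.

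Just inside the limit of 3 kb were the LUX region, 2540 bp from the gene edge to edge, and the LUX peak of list 1 at 2515 bp. Just outside it was a list 1 peak 3111 bp from LHY, with a fold of 1.37. The nearest pair of list 2 and list 3 peaks beyond the limit lay on the lower-coordinate side of PRR9. The list 2 peak, 19227194 to 19228109, was 4498 bp away with a fold of 3.16, and the list 3 peak, 19227194 to 19228083, was 4524 bp away with a fold of 5.29.

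Of 37 other clock-associated genes, 7 had a region in lists 2 and 3 (18.9%, against 16.9% of all genes), so the list as a whole stood near the background. The RVE and LNK genes encode morning-expressed MYB-type factors and the coactivators that bind them. Of the 9 matched by name, 3 had such a region, against 16.9% of all genes. RVE3, RVE5 and RVE6 were not matched by name and were left out. In all 3 lists, 1 of the 37 genes had a region (2.70%, against 6.73% of all genes). This was RVE7 (EPR1, AT1G18330), a MYB-type factor related to CCA1, with a region at 6307735 to 6308995 on chromosome 1. Its folds were 1.07, 3.47 and 5.76 in lists 1, 2 and 3, and the nearest gene to the summit was AT1G18335. False discovery rates there were 2.79%, 24.5% and 18.1% in the same order.

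LNK2 (AT3G54500), a coactivator of RVE8, had peaks of both lists between 20179921 and 20180887 on chromosome 3. The fold was 3.96 in list 2 and 7.06 in list 3, the highest of these 37 genes in list 3. The false discovery rate was 11.1% in list 2 and 14.0% in list 3. The summit of this region was inside the next gene, AT3G54510. A second LNK2 region at 20178743 to 20179668 had its summits at the gene's own edge, with folds of 2.78 in list 2 and 4.17 in list 3. False discovery rates there were 68.3% in list 2 and 71.9% in list 3. RVE2 (AT5G37260) had folds of 2.5 and 2.99 in lists 2 and 3, in a region 157 to 225 bp beyond the gene by its summits. The RVE2 false discovery rates there were high, 83.5% in list 2 and 95.9% in list 3. RVE1, RVE4, RVE8, LNK1, LNK3 and LNK4 had no list 2 or list 3 peak (26.4% and 20.2% of all genes had one).

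The genes CDF3 and CDF2 encode DOF-type repressors of the flowering gene CO. Of the 5 matched photoperiod genes, these 2 had a region in lists 2 and 3, against 16.9% of all genes. CDF5 was not matched by name and was left out. The CDF3 folds were 2.84 in list 2 and 4.93 in list 3, at 17507525 to 17508147 on chromosome 3. There the false discovery rate was 36.7% in list 2 and 28.5% in list 3. The CDF2 folds were 2.57 in list 2 and 3.78 in list 3, with the summit in the gene and false discovery rates of 55.3% and 52.0%. CO had no peak in any list. FT, the flowering signal, had a peak in list 3 alone with a fold of 4.31 and a false discovery rate of 95.0%.

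Among 14 other regulators, TIC and CKB3, a subunit of the kinase CK2 that phosphorylates CCA1, had regions in lists 2 and 3. These 2 of 14 genes are 14.3%, below the 16.9% of all genes. The folds were 3.16 in list 2 and 4.55 in list 3 near TIC, with AOX1A the nearest gene to the summit. They were 1.76 in list 2 and 2.83 in list 3 inside CKB3. False discovery rates in lists 2 and 3 were 54.3% and 65.4% near TIC, and 31.8% and 33.3% in CKB3. Regions in at least 2 lists reached 5 of these 14 genes (35.7%), against 21.6% of all genes. LWD1, XCT and JMJ30 of this group had regions of lists 1 and 2 without list 3, the strongest with list 2 folds of 2.78, 2.09 and 1.94. ELF4-L3, a relative of ELF4, and RVE2, at a second site, also had one, with list 2 folds of 2.64 and 2.79. At these peaks the list 2 false discovery rate ran from 39.7% at RVE2 to 84.2% at XCT. The ZTL family of F-box photoreceptors, ZTL, FKF1 and LKP2, had a list 1 peak at 3 of 3 genes (63.5% of all genes) and a list 2 or list 3 peak at 0 (26.4% and 20.2% of all genes), counts too small to read against those shares.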

How the data were processed

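Anti-Myc ChIP-seq was done on 3 PIF4-Myc and 3 wild-type libraries. The submitters' processing notes list TAIR10 as the build and the tools CASAVA 1.8.0, Bowtie 0.12.7 and MACS 1.4.1. Per the file headers, each PIF4-Myc library had its own peak call at a p cutoff of 1e-05, and list 2 came from MACS 1.4.1 but the other two lists from MACS 1.4.0rc2. Tags per peak are counts deposited by the authors for lists 2 and 3. In list 1 all deposited tag values are multiples of 5 and were treated as a score, as was the deposited -10 log10 p, which ranked peaks within a list. Fold enrichment is the authors' ratio of tags to the local expectation, and the false discovery rate is the authors' percent. Depth per position is unknown, so folds have no counting interval. The header of list 1 gives more tags after filtering (112342435) than in total (12766185), and its control total cannot be read.

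Genes are the 27444 nuclear protein-coding genes of RefSeq's TAIR10.1, taken to have the nuclear coordinates of TAIR10. In list 3, 64.6% of summits were outside these genes, and 62.0% to 62.3% once moved by 250 bp in either direction. Distances rest on this annotation, which carries no strand. A summit is the peak start plus the deposited offset minus 1. The members and lists were chosen with earlier results of these data known, so counts stand beside the share of all genes and no test was run. Of 41 other clock-associated genes, 37 were matched by name and identifier. RVE3, RVE5, RVE6 and CDF5 were not matched by name and were left out. Those with a shared region in most lists, ranked next by list 3 fold, were named, up to 10. RVE1, RVE4, RVE8, LNK1, LNK3, LNK4, CO, FT, JMJ30, ZTL, FKF1 and LKP2 were named after their values were seen. The overlap functions were tested on simulated peaks. Python 3.11.15, pandas 2.3.3 and numpy 2.4.6 were used. The alternatives are given with their effect in the closing section.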

Additional observations from a re-analysis of the deposited data

How the results depend on the processing

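GI kept a region in lists 2 and 3 and in all 3 lists with windows of 1 kb and 5 kb, with the summit in the window, with the nearest gene alone, with the better-ranked 50% of each list, with equal numbers of peaks and with summits within 100 bp. PRR9 and PRR5 kept theirs in lists 2 and 3 under the same settings and with a reciprocal overlap of 50%. LUX dropped out with a window of 1 kb, the nearest gene alone, the better-ranked 50% and equal numbers. With a reciprocal overlap of 50%, 0 clock genes had a region in all 3 lists (0.966% of all genes), because the list 1 peak at GI is 344 bp wide and the others are 965 bp. With the better-ranked 50% of each list, list 1 reached 5 clock genes (37.9% of all genes) and list 2 reached 3 (14.2%). With equal numbers of peaks, 2931 per list, list 1 reached 2 clock genes, GI and PRR5 (19.2% of all genes), and list 2 reached 3 (19.8%). At a false discovery rate of 1% or less, list 2 reached 1 clock gene, GI (0.670% of all genes). List 1 (0.802% of all genes), list 3 (0.00729%), regions of lists 2 and 3 (0.00729%), and regions of all 3 lists (0%) reached 0. Lists 1, 2 and 3 have 166, 85 and 2 peaks at that rate. With shares of all genes this low, the counts of 0 cannot set the clock genes apart from other genes. Leaving out each list in turn gave 1 to 4 clock genes with a region in the other lists. There were 4 without list 1 (16.9% of all genes), 1 without list 2 (GI, 7.23%) and 1 without list 3 (GI, 11.3%). Calls at PRR9, PRR5 and LUX thus rest on lists 2 and 3 together. The share of all genes was also lower without list 2 or list 3. The lower counts are therefore not read as particular to the clock genes. Of 19 highest folds, all 19 stayed within 1.5 times with the summit in the window. With a window of 1 kb, 16 had a value and 1 moved further, LHY in list 1, at 0.48. No paired analysis was possible because the deposited files hold 1 peak list per PIF4-Myc library and no values of wild-type libraries.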

Other observations

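By the folds of all 3 lists, the genes most like GI among 3481 other genes with a peak in each list were PAB3, LNG1, AT5G15581, AT5G59350 and AT3G14205, at distances of 0, 0.125, 0.125, 0.15 and 0.156 on the log2 scale. PAB3 is the neighbour of GI and shares its main peak. LNG1 (AT5G15580), which promotes longitudinal cell growth, had folds of 1.39, 5.64 and 7.65 in lists 1, 2 and 3. AT5G15581, next to LNG1 by locus number, had the same folds, so these genes are not read as separate matches. AT5G59350 had folds of 1.37, 5.99 and 7.77, and AT3G14205 had 1.56, 6.05 and 8.05. The likeness was measured over 3 values per gene and is a description of these lists.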
